A study of Mus musculus with 6 samples.

Results

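The 34 macrophage and leukocyte genes described here were fixed by symbol: 3 complement C1q chains, 5 Fc receptor and adaptor genes, 8 macrophage receptor and regulator genes, 4 lysosomal genes, 4 oxidase and integrin genes, 5 leukocyte signalling and actin genes, 4 granule protein genes and the platelet chemokine Pf4. Each matched 1 row of the 56359 in the deposited table. RNA sequencing was made from 6 C57BL/6 mouse embryo samples at embryonic day 12, 3 wild type and 3 Tmem216-/-, in which the gene of a ciliary transition zone protein is disrupted. The labels do not state the kind of Tmem216 allele, the part of the embryo taken, its sex, or whether each sample is a separate embryo. The p-values below thus reflect only how far these 6 samples scatter, and some of that scatter may be technical. Values are TPM, a level scaled to transcript length and to the total of the sample, and the read depth is unknown. Of the 34 genes, 28 reached 1 TPM in at least 3 of the 6 samples and entered the test.

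Macrophages of the embryo at this age descend mainly from yolk sac precursors, while the fetal liver has begun to make granulocyte precursors. Macrophages engulf dying cells. They depend on the growth factor receptor Csf1r and the transcription factor PU.1, encoded by Spi1, and they carry C1q, Fc receptors and lysosomal proteases. Granulocyte precursors instead fill their granules with Mpo and the serine proteases Elane, Prtn3 and Ctsg.

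PU.1 is an ETS family factor, so the promoters of the genes were searched for GAGGAAGT and its reverse complement ACTTCCTC, the core that PU.1 is known to bind. RefSeq promoters on GRCm38.p6, from 250 bases before the start to 50 after it, were found for 27 of the 34 genes by symbol. The motif was present in 7 of these 27 genes (25.9%), against 997 of all 27025 genes in the same promoter table (3.69%). The shorter core GAGGAA or TTCCTC, which lies inside the longer motif, was present in 20 of the 27 (74.1%) and in 8446 of the 27025 (31.3%). A match describes letters in this window and does not show a bound site. The 7 matches are given in a window of 30 bases, 5′ to 3′ on the strand of the gene, because Spi1 is itself one of the genes measured. Capitals mark the motif.
C1qc: ggacggcagacACTTCCTCattttggcaca
Ctss: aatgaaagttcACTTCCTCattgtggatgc
Vav1: cagtcacagaaGAGGAAGTggtgttgtagt
Mpo: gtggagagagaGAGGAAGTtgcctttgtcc
Prtn3: caaactggaagGAGGAAGTgggacccacag
Elane: cgtgtcccaggGAGGAAGTagggctgtggc
Pf4: ttctgcagagcACTTCCTCatcctgtatcc
The C1qc window lies at chr4:136893091-136893120 on the minus strand, and its motif begins 195 bases before the start. The other windows are on the plus strand. Those of Ctss (chr3:95526773-95526802), Pf4 (chr5:90772414-90772443) and Vav1 (chr17:57279078-57279107) hold motifs that begin 2, 10 and 11 bases before the start. Those of Elane (chr10:79886216-79886245), Prtn3 (chr10:79879561-79879590) and Mpo (chr11:87793549-87793578) hold motifs that begin 85, 95 and 224 bases before it. Thus 3 of the 4 granule protein genes carry the motif, and their promoters show it in the same orientation.

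The samples also differed in genes outside this set. Tmem216 was 17.4 to 31.0 TPM in the wild type and 0.51 to 2.25 TPM in Tmem216-/-. All 12 listed heart muscle genes passed the test and rose, where 17 of all 16411 tested genes passed (0.104%). That list was chosen with earlier results of these data known. Its summed level was 40.7 to 63.2 TPM in the wild type and 881 to 2321 TPM in Tmem216-/-. With no filter on level 0 of the 12 passed, and 0 passed with the level of 12 hepatocyte genes as a covariate. With wild type replicate 1, 2 or 3 left out 0, 2 and 0 of these 12 passed, and with Tmem216-/- replicate 1, 2 or 3 left out 11, 6 and 1 did. Their median log2 fold change stayed between 3.75 and 4.30 in these fits. The 12 listed hepatocyte genes split the samples across genotype: they summed to 2359, 2703 and 226 TPM in wild type replicates 1, 2 and 3 and to 1138, 132 and 165 TPM in the same replicates of Tmem216-/-. Afp, the fetal albumin, spanned 669, 1228 and 11.3 TPM and 480, 0.47 and 3.07 TPM in that order. All 12 were tested and lay below 0, with a median of -1.75 and 0 passed. The liver is a site of blood formation at this stage, so these sums are set beside the blood cell genes below. In whole tissue, fewer cells of a type and less RNA per cell cannot be told apart.

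Macrophage genes were present in every sample at low to moderate levels. Averaged over the 6 samples, 12 of the 34 genes were at 10 TPM or more, 16 between 1 and 10 TPM, and 6 under 1 TPM. Pf4, Cyba and Coro1a were the highest and Cybb, Elane and Ctsg the lowest. A value above 0 was listed in all 6 samples for 32 of the 34; Elane and Ctsg had zeros. Genes of other white cells were scarcer: of 14 lymphoid genes, 8 stayed under 1 TPM in every sample, Cd3e among them, and of 9 mast cell and basophil genes, 6 did. The 4 lymphoid and 3 mast cell genes that were tested gave 0 that passed. The plot of levels by sample shows how narrow most rows are beside those of Mpo, Rac2, Itgb2 and Elane.

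**Figure D1:**
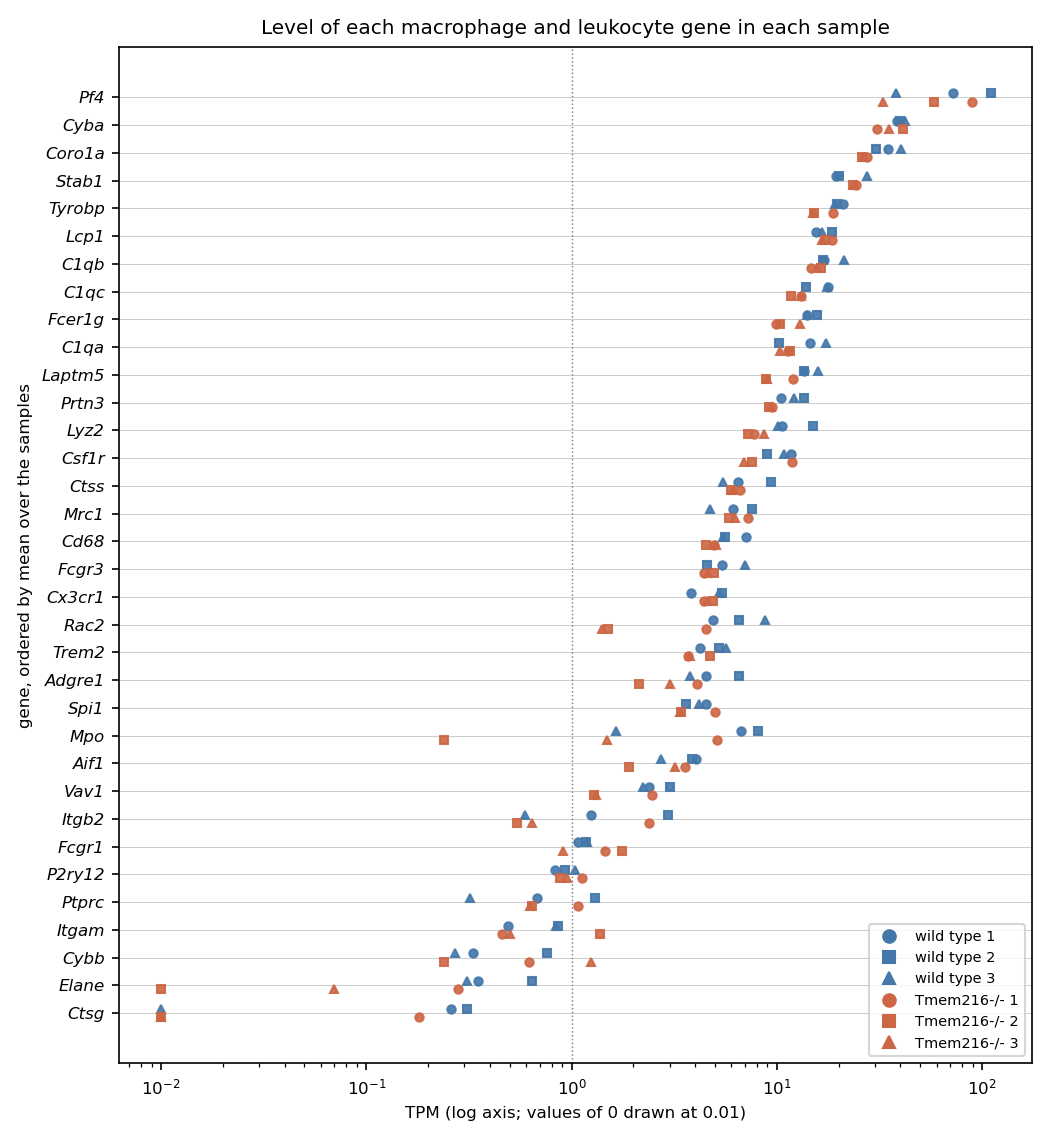
TPM of each of the 34 genes (rows, ordered by their mean) in the 3 wild type (blue) and 3 Tmem216-/- (orange) samples, on a log axis with values of 0 drawn at 0.01 and a dotted line at 1 TPM. Most genes span a narrow range over the 6 samples, while Mpo runs from 0.24 to 8.12 TPM and Rac2 from 1.41 to 8.71 TPM.

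None of the genes passed the test of Tmem216-/- against wild type, and most lay slightly below wild type. In limma 0 of the 28 tested genes had an adjusted p under 0.05, against 0.104% of all 16411 tested genes (0.0975% higher and 0.00609% lower), and 7 had an unadjusted p under 0.05, against 4.46%. The lowest adjusted p among the 28 was 0.863. Their log2 fold changes (Tmem216-/- minus wild type, of TPM + 1) were below 0 in 24 and above 0 in 4, with a median of -0.26. Over all tested genes 51.7% were below 0 and the median was -0.0077. Counted over all 34 genes by mean TPM, 26 were lower in Tmem216-/- and 8 higher. In 10 of the 28 every Tmem216-/- value lay below every wild type value, against 4.83% of all tested genes, and in 0 did every value lie above, against 4.75% (9.57% in either direction). These 10 were C1qb, C1qc, Fcer1g, Tyrobp, Lyz2, Cd68, Laptm5, Coro1a, Rac2 and Prtn3. Each of them had a p of 0.1 in a two-sided exact permutation test, and no smaller value can come from 3 against 3 samples. The 34 genes were chosen with earlier results of these data known, and genes of the same cells may vary together between samples. The counts beside the shares over all genes are thus a description and not a test of an excess. With each sample left out in turn 0 of the 28 passed, and the median stayed between -0.33 and -0.22.

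**Figure D2:**
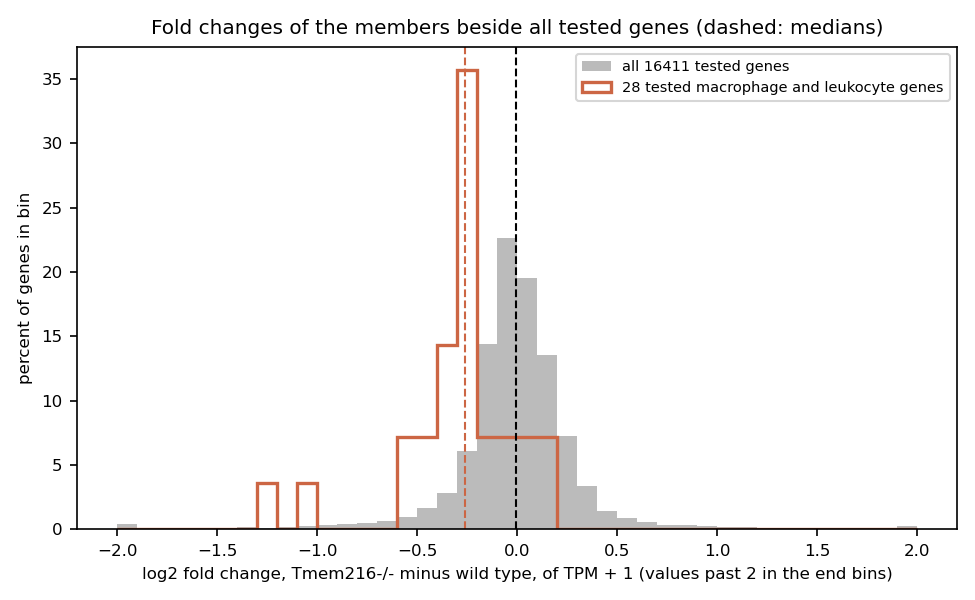
Percent of genes in each bin of 0.1 of the log2 fold change (Tmem216-/- minus wild type, of TPM + 1) for the 28 tested macrophage and leukocyte genes (orange line) and all 16411 tested genes (grey), with values past 2 in the end bins and dashed lines at the medians. The medians are -0.26 and -0.0077, and Rac2 and Mpo are the genes below -1.

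The 3 C1q chains, which assemble into the first component of the classical complement pathway, were at similar levels to each other, with lower means in Tmem216-/-. C1qa was 14.5, 10.2 and 17.4 TPM in the wild type and 11.3, 11.6 and 10.4 TPM in Tmem216-/-, given here and throughout in the order of replicates 1, 2 and 3. The groups overlapped, since wild type replicate 2 held the lowest value of all. C1qb was 17.0, 16.7 and 21.3 TPM in the wild type and 14.7, 16.4 and 15.7 TPM in Tmem216-/-. Its groups did not overlap, but the highest Tmem216-/- value was close to the lowest wild type one. C1qc was 17.8, 13.8 and 17.5 TPM and 13.1, 11.7 and 13.1 TPM, with means of 16.4 ± 2.22 and 12.6 ± 0.77 TPM (SD, n = 3 each). Its log2 fold change was -0.34 (95% confidence interval -0.67 to -0.014; limma adjusted p = 0.983). The 3 genes lie side by side on the minus strand of chromosome 4 in mm10, C1qb from 136880129 to 136886187, C1qc from 136889804 to 136893065 and C1qa from 136895917 to 136898803. Summed, they were 40.7 to 56.1 TPM in the wild type and 39.1 to 39.8 TPM in Tmem216-/-.

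None of the 5 Fc receptor and adaptor genes passed the test. Fcer1g encodes the common gamma chain that carries the signal of Fc receptors. It was 14.02, 15.7 and 13.97 TPM in the wild type and 9.92, 10.3 and 12.9 TPM in Tmem216-/-, with means of 14.6 ± 1.01 and 11.1 ± 1.62 TPM. All Tmem216-/- values were below wild type, and the log2 fold change was -0.38 (-0.71 to -0.041; adjusted p = 0.983). Tyrobp, the adaptor of Trem2, was 20.9, 19.6 and 19.1 TPM and 18.7, 15.2 and 15.0 TPM. Its groups were separated by less than 1 TPM between wild type replicate 3 and Tmem216-/- replicate 1 (log2 fold change -0.28, -0.58 to 0.018). Trem2, a lipid-sensing receptor of phagocytes, was 4.24, 5.25 and 5.66 TPM and 3.71, 4.70 and 3.76 TPM. Fcgr3, a low-affinity IgG receptor, was 5.39, 4.59 and 6.99 TPM and 4.43, 4.93 and 4.63 TPM. Both receptors overlapped between groups, with log2 fold changes of -0.26 and -0.22. Fcgr1, the high-affinity IgG receptor, was 1.07 to 1.19 TPM in the wild type and 0.91 to 1.77 TPM in Tmem216-/-, and its log2 fold change was 0.13 (0.017 without Tmem216-/- replicate 2 and 0.28 without replicate 3). Fcgr3 has close relatives, Fcgr2b and Fcgr4, which were at most 0.59 TPM in any sample, and reads shared between such copies may have been split.

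Receptors and the regulator that define macrophages gave overlapping groups in all 8 genes. Csf1r, the receptor on which macrophage survival depends, was 11.8, 8.91 and 10.9 TPM in the wild type and 11.8, 7.56 and 6.94 TPM in Tmem216-/-. Tmem216-/- replicate 1 was level with the highest wild type sample and the other two were below all wild type (log2 fold change -0.26, -0.78 to 0.26). It was -0.47 without Tmem216-/- replicate 1 and -0.13 without replicate 3. Csf1r shares 873 exon bases with Hmgxb3 on the opposite strand, which averaged 21.3 TPM. Spi1 followed the same order, with 4.50, 3.59 and 4.19 TPM and 4.97, 3.43 and 3.36 TPM, and its log2 fold change was -0.061 (-0.51 to 0.39). Adgre1 encodes F4/80, a surface marker of mouse macrophages. It was 4.52, 6.56 and 3.79 TPM and 4.10, 2.12 and 3.02 TPM, and only Tmem216-/- replicate 1 reached the wild type range (-0.55, -1.17 to 0.069). Aif1, an actin-bundling protein also called Iba1, was 2.74 to 4.04 TPM in the wild type and 1.90 to 3.56 TPM in Tmem216-/-. Cx3cr1, the fractalkine receptor, was 3.80 to 5.40 and 4.43 to 4.89 TPM, and P2ry12, a purine receptor of microglia, was 0.83 to 1.04 and 0.88 to 1.12 TPM. Both genes are known as markers of microglia. Cx3cr1 averaged 4.80 TPM in the wild type and 4.64 TPM in Tmem216-/-, and P2ry12 averaged 0.93 and 0.98 TPM. The interval for Cx3cr1 ran from -0.44 to 0.38. Of all 8 receptor and regulator genes, 5 had a lower mean in Tmem216-/- and 3 a higher one, so these 2 do not stand for the rest. P2ry12 was not tested, since 2 of the 6 samples reached 1 TPM.

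Scavenger receptors shared with endothelium overlapped between the groups. Mrc1, the mannose receptor, was 6.13, 7.57 and 4.75 TPM in the wild type and 7.25, 5.87 and 6.23 TPM in Tmem216-/- (log2 fold change 0.074, -0.38 to 0.53). Stab1, an endocytic receptor of macrophages and of sinusoidal endothelium, was 19.4, 20.1 and 27.6 TPM and 24.3, 23.5 and 23.8 TPM (0.11, -0.25 to 0.46). In both genes the Tmem216-/- values fell inside the wild type range. Of 10 listed endothelium genes, 8 were higher and 2 lower in Tmem216-/- and 0 passed. Their summed level was 269 to 297 TPM in the wild type and 275 to 319 TPM in Tmem216-/-. Tek, an angiopoietin receptor, had the smallest p among them (log2 fold change 0.58, limma adjusted p = 0.496). The part of endothelium in the Stab1 and Mrc1 values was not tested. Stab1 also shares 112 exon bases with Nt5dc2 on the opposite strand, which averaged 271 TPM over the samples. The sources used here do not state that the counting used strand.

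None of the 4 lysosomal genes passed the test. All 4 had a lower mean in Tmem216-/-, and Ctss was the one whose groups overlapped; 4.83% of all tested genes lay wholly below wild type. Lyz2, the lysozyme of myeloid cells (chromosome 10, 117277331 to 117282321), reached 10.6, 15.0 and 10.1 TPM in the wild type and 7.77, 7.27 and 8.62 TPM in Tmem216-/-. Means were 11.9 ± 2.70 and 7.89 ± 0.68 TPM, and the log2 fold change was -0.52 (-0.95 to -0.095; adjusted p = 0.983). Its near copy Lyz1 was at most 0.27 TPM. Laptm5, a lysosomal membrane protein of blood cells (chromosome 4, 130913125 to 130936141), reached 13.5, 13.5 and 15.9 TPM and 11.99, 8.85 and 8.97 TPM. Tmem216-/- replicate 1 again lay nearest to wild type, and the log2 fold change was -0.49 (-0.87 to -0.12; adjusted p = 0.931). Cd68, a glycoprotein of late endosomes, was 7.10, 5.57 and 5.47 TPM and 4.96, 4.51 and 5.08 TPM (-0.26). Ctss, the cysteine protease cathepsin S, was 6.45, 9.41 and 5.47 TPM and 6.62, 5.99 and 6.09 TPM, and wild type replicate 2 alone stood above the Tmem216-/- values by more than 1 TPM (-0.14). Without wild type replicate 2 the log2 fold change of Ctss was 0.058. Summed, the 4 genes were 37.0 to 43.5 TPM in the wild type and 26.6 to 31.3 TPM in Tmem216-/-.

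Oxidase and integrin genes overlapped between the groups. Cyba and Cybb encode the membrane subunits of the phagocyte NADPH oxidase. Cyba, which other cell types also express, was 38.4, 39.7 and 41.9 TPM in the wild type and 30.6, 41.2 and 35.0 TPM in Tmem216-/- (-0.17, -0.47 to 0.13). Cybb, its phagocyte-restricted partner, was 0.27 to 0.76 and 0.24 to 1.25 TPM and was not tested. Itgb2, the beta chain of the leukocyte integrins, was 1.24, 2.96 and 0.59 TPM and 2.39, 0.54 and 0.64 TPM, with high values in wild type replicate 2 and Tmem216-/- replicate 1 (-0.24, -1.29 to 0.81). Without wild type replicate 2 its log2 fold change was 0.12. Its partner Itgam was 0.49 to 0.86 and 0.46 to 1.37 TPM and was not tested. Itgam shares 3450 exon bases with Gm49368 on the same strand, which averaged 0.24 TPM, so reads of the pair may have been split.

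Rac2 did not pass the test, and its groups did not overlap. It encodes a small GTPase of blood cells that activates the phagocyte oxidase and actin assembly, and it lies on chromosome 15 at 78559167 to 78572783. It was 4.87, 6.51 and 8.71 TPM in the wild type and 4.53, 1.51 and 1.41 TPM in Tmem216-/-. Tmem216-/- replicates 2 and 3 were far below the rest, while replicate 1 lay just under the lowest wild type sample. Means were 6.70 ± 1.93 and 2.48 ± 1.77 TPM, and the log2 fold change was -1.23 (SE 0.37, -2.11 to -0.34; adjusted p = 0.863). The adjusted p was 0.213 without Tmem216-/- replicate 1, the lowest that any of the 28 genes reached under the alternatives tried.

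The other signalling and actin genes did not pass the test either. Coro1a, an actin regulator of leukocytes that neurons also express, was 34.7, 30.4 and 40.2 TPM in the wild type and 27.4, 26.1 and 26.3 TPM in Tmem216-/-. The 3 Tmem216-/- samples lay within 1.5 TPM of each other and below all wild type samples. Means were 35.1 ± 4.90 and 26.6 ± 0.70 TPM (log2 fold change -0.38, -0.67 to -0.089; adjusted p = 0.94). Lcp1, the actin bundler L-plastin, was 15.5, 18.6 and 16.7 TPM and 18.5, 17.1 and 16.5 TPM (0.039, -0.24 to 0.32). Vav1, a guanine exchange factor for Rac proteins, was 2.37, 3 and 2.24 TPM and 2.46, 1.29 and 1.31 TPM, so Tmem216-/- replicates 2 and 3 were the low samples as for Rac2 (-0.42, -0.96 to 0.12). Ptprc, which encodes the pan-leukocyte phosphatase CD45, was 0.32 to 1.30 and 0.63 to 1.07 TPM and was not tested. Its means were 0.77 and 0.78 TPM.

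**Figure D3:**
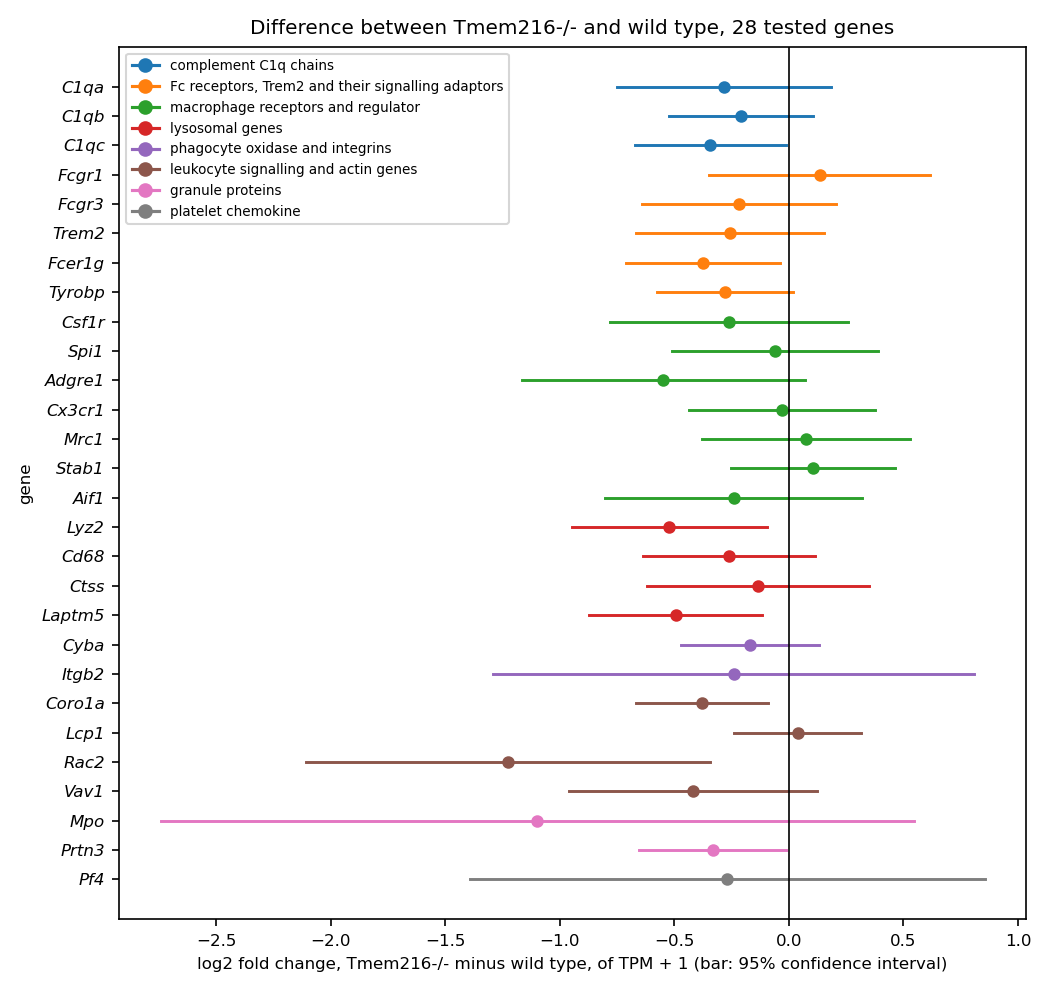
Log2 fold change (Tmem216-/- minus wild type, of TPM + 1; points) with its 95% confidence interval (bars) for the 28 tested genes, coloured by role. Most points lie left of 0, and the intervals of Mpo, Rac2, Itgb2 and Pf4 are the widest.

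All 4 granule protein genes had a lower mean in Tmem216-/- and none passed the test, and Mpo varied across samples in the order of the hepatocyte genes. Mpo, the myeloperoxidase of granulocytes and their precursors, was 6.71, 8.12 and 1.64 TPM in the wild type and 5.12, 0.24 and 1.49 TPM in Tmem216-/- (log2 fold change -1.1, -2.74 to 0.55; adjusted p = 0.983). It was -0.55 without Tmem216-/- replicate 2, -1.70 without Tmem216-/- replicate 1, -1.66 without wild type replicate 3 and -1.70 with a pseudocount of 0.1. Wild type replicate 3 was low and Tmem216-/- replicate 1 was high, as for the hepatocyte sums. With the level of the hepatocyte genes added to the fit as a covariate, chosen after seeing the data, the log2 fold change of Mpo was -0.14 and that of Rac2 was -1.13. This covariate was tied to genotype: all 12 hepatocyte genes were lower in Tmem216-/-, with mean sums of 1763 TPM in the wild type and 478 TPM in Tmem216-/-. With 6 samples the fit cannot separate liver content from genotype, and the part of liver tissue in these values was not tested. Elane, neutrophil elastase, was 0.35, 0.64 and 0.31 TPM in wild type, 0.28 and 0.07 TPM in Tmem216-/- replicates 1 and 3, and listed at 0 in replicate 2. Ctsg, cathepsin G, was at most 0.31 TPM and was listed at 0 in 3 samples. Prtn3, proteinase 3, did not share the spread of Mpo: it was 10.5, 13.6 and 12.2 TPM and 9.43, 9.18 and 9.39 TPM (-0.33, -0.66 to -0.011; adjusted p = 0.983). Prtn3 shares 159 exon bases with Plppr3, a neuronal gene on the opposite strand that averaged 114 TPM and had a log2 fold change of -0.10. Within that shared stretch, reads of the 2 genes cannot be told apart without strand.

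None of the other granulocyte genes passed the test. By mean TPM 12 of the 14 listed genes were lower in Tmem216-/- and 2 higher; 7 were tested and 0 passed. Lcn2 and Csf3r, 2 of the 7, entered the test through the wild type alone, with no Tmem216-/- value at 1 TPM, so no median or count of separated groups over the 7 is given. S100a8 and S100a9 encode the calcium-binding proteins that fill the cytoplasm of neutrophils. S100a8 was 9.64, 11.6 and 9.35 TPM in the wild type and 3.33, 0.70 and 3.04 TPM in Tmem216-/- (-1.85, SE 0.37; adjusted p = 0.310). S100a9 reached 22.7, 24.3 and 11.7 TPM against 10.6, 3.37 and 3.15 TPM (-1.73; adjusted p = 0.713). Wild type replicate 3, which was low in hepatocyte genes, was level with wild type replicate 1 for S100a8 and close to Tmem216-/- replicate 1 for S100a9. Ngp, a neutrophil granule protein, was 2.77, 2.89 and 3.05 TPM and 1.35, 0.50 and 0.66 TPM (-1.11, SE 0.22; adjusted p = 0.304). With the hepatocyte covariate 0 of the 7 passed, and no median over the 7 is given for that fit either. The fit cannot separate liver content from genotype, so the part of liver tissue in these differences was not tested.

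**Figure D4:**
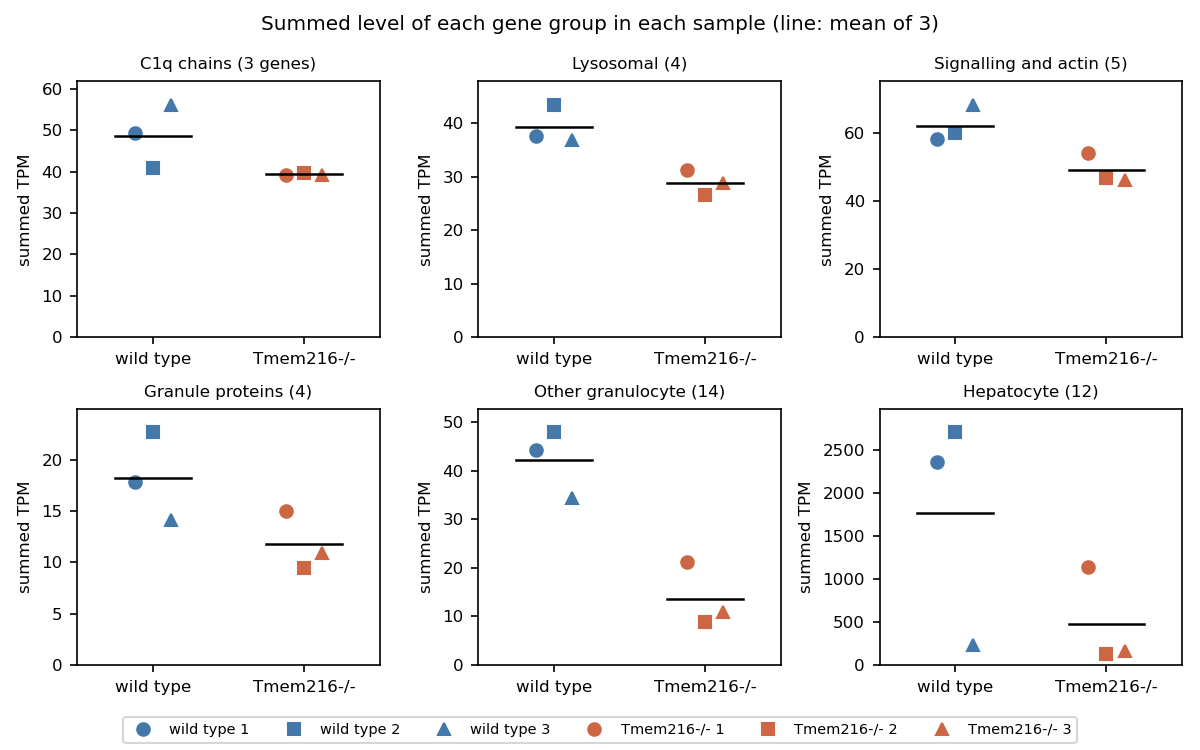
Summed TPM of 6 gene groups in each sample (points, shaped by replicate; line, mean of 3) for wild type (blue) and Tmem216-/- (orange), each axis starting at 0. The C1q, lysosomal, signalling and actin, and other granulocyte sums do not overlap between groups, and the granule protein sums do. In the hepatocyte panel wild type replicate 3 lies with Tmem216-/- replicates 2 and 3. Of groups not drawn, the Fc receptor and adaptor sums do not overlap. The receptor and regulator sums (wild type 55.0 to 60.2, Tmem216-/- 50.1 to 61.6 TPM), oxidase and integrin sums, and Pf4 do. No share over all genes was made for such sums.

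Pf4, the chemokine of platelets and megakaryocytes that embryonic macrophages also express, had the highest mean level of the 34 genes. It was 72.5, 110 and 37.9 TPM in the wild type and 89.3, 58.3 and 32.8 TPM in Tmem216-/- (log2 fold change -0.27, -1.39 to 0.85). Replicate 3 was the lowest in each group, and the groups overlapped. Of 12 listed platelet and megakaryocyte genes 10 were tested, 8 lay below 0 and 2 above, and 0 passed; their summed level was 58.7, 101 and 40.2 TPM and 88.8, 50.1 and 32.3 TPM. The sums put the 6 samples in the same order as Pf4. Without wild type replicate 2 the log2 fold change of Pf4 was 0.081, and with the hepatocyte covariate it was 0.33. Erythroid genes summed to 36985 to 44367 TPM in the wild type and 27950 to 56797 TPM in Tmem216-/-, and 0 of the 16 tested passed. All 34 genes summed to 376, 424 and 364 TPM in the wild type and 362, 311 and 284.5 TPM in Tmem216-/-, so wild type replicate 3 and Tmem216-/- replicate 1 were nearly equal. With Pf4 left out, the other 33 genes summed to 304, 314 and 326 TPM in the wild type and 273, 253 and 252 TPM in Tmem216-/-.

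Further genes of the same cells, from lists chosen with earlier results of these data known, included some that were near wild type. Of 25 other macrophage genes 13 were tested, 5 above 0 and 8 below, with a median of -0.12 and 0 passed. That median was 0.0033 without Tmem216-/- replicate 2 and -0.041 without wild type replicate 1. Ifi30, a lysosomal thiol reductase, had the smallest p of these, with a log2 fold change of -0.28. It was 20.9 to 22.7 TPM in the wild type and 15.2 to 20.9 TPM in Tmem216-/-. Irf8, a partner factor of PU.1, was at -0.24 and Pla2g7, a secreted phospholipase, at -0.26. Of 21 other leukocyte signalling genes 18 were tested, 17 below 0 and 1 above, with a median of -0.36 and 0 passed. The median of that list was -0.12 with the hepatocyte covariate and -0.21 without wild type replicate 2.

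Ligands that feed and attract macrophages, and genes for clearing dead cells, lay mostly above 0 without passing the test. Of 9 ligand genes 6 were tested, 5 above 0 and 1 below, with a median of 0.12 and 0 passed. Csf1, a ligand of Csf1r, was 5.52 to 5.79 TPM in the wild type and 5.90 to 7.97 TPM in Tmem216-/- (0.18). Csf1 was the 1 gene of these 6 with every Tmem216-/- value above every wild type value, against 4.75% of all tested genes. Ccl2, a monocyte chemokine, was at 0.49, and Cxcl12, the ligand of Cxcr4, was at 0.14. All 12 listed genes of apoptotic cell clearance were tested, 8 above 0 and 4 below, with a median of 0.10 (0.018 without wild type replicate 3) and 0 passed. Megf10, an engulfment receptor of glia and muscle precursors, was at 0.24, Gulp1, an engulfment adaptor, at 0.27 and Elmo1, a Rac activator with Dock proteins, at -0.21. Of the 11 blood progenitor genes, 3 lay above 0 and 8 below with 0 passed; Gfi1b, an erythroid and megakaryocyte repressor, was 14.1, 17.8 and 3.32 TPM and 6.81, 1.71 and 2.50 TPM (-1.35), again low in wild type replicate 3.

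Across the 34 genes, Tmem216-/- replicate 2 held the lowest value most often and wild type replicate 2 the highest. The lowest of the 6 values was in Tmem216-/- replicate 2 for 13 genes, in Tmem216-/- replicates 1 and 3 for 6 each, and in wild type replicates 1, 2 and 3 for 4, 1 and 3, with 1 tie. The highest was in wild type replicates 1, 2 and 3 for 4, 15 and 9 genes and in Tmem216-/- replicates 1, 2 and 3 for 3, 2 and 1. Precision limits what can be said of a single gene. The half-width of the 95% interval had a median of 0.43 on the log2 scale. For 5 of the 28 genes the interval still included a log2 fold change of -1, and for 0 did it include 1.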

How the data were processed

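The authors deposited TPM per gene for 6 samples. Per the submitters' processing notes, CASAVA 1.8, HISAT2, StringTie and RSEM were used with mm10; settings, annotation and strand use are not given in the sources used here. Other deposited columns were 2 group means, left out, and a length. The members and gene lists were chosen with earlier results of these data known. A gene was tested if 3 or more samples reached 1 TPM (16411 genes). The test was two-sided, on log2(TPM + 1), with limma (lmFit, then trended eBayes) over all 6 samples, with Benjamini-Hochberg adjustment over all tested genes and a threshold of 0.05. The fold change of low genes is understated by the pseudocount of 1. Intervals are limma's 95% intervals. Where identifiers share a symbol, the one with the highest mean kept it; 1 of the listed genes, Ahsp, did not match. Named genes were taken from every member, Tmem216, and up to 3 genes of each other list with the smallest p or any that passed; Afp, Cd3e, Lcn2, Csf3r, Lyz1, Fcgr2b, Fcgr4, Hmgxb3, Gm49368, Nt5dc2 and Plppr3 were named after their values were seen. Some genes that the rule selects are not reported here. Coordinates and exon overlaps are from GENCODE vM21 (GRCm38, the assembly of mm10), and promoter sequences from RefSeq on GRCm38.p6. The planned comparison of protein sequences was not made. In simulated data with 16411 genes the fit recovered 56% of genes changed 2-fold, 88% at 4-fold and 100% at 8-fold and 16-fold, with 3 false calls among 175. Changes were planted only in genes above about 5 TPM, 50 at each fold, with noise drawn separately for each gene. These rates thus do not cover members at lower levels, or variation that genes share between samples. Versions were R 4.3.3, limma 3.58.1, Python 3.11.15, pandas 2.3.3, scipy 1.17.1 and matplotlib 3.10.9.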

Additional observations from a re-analysis of the deposited data

How the results depend on the processing

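In limma 0 of the tested macrophage and leukocyte genes passed under any alternative: pseudocount 0.1, a filter at 5 TPM or none, median-of-ratios scaling, removal of 49 haemoglobin and mitochondrial genes, eBayes without a trend, the replicate block, each sample left out, and the hepatocyte covariate, chosen after seeing the data. Their median log2 fold change was -0.33 to -0.22 with each sample left out and -0.30 to -0.21 otherwise. Of 382 single values 17, in 8 genes with a main log2 fold change no larger than 0.27 in size, changed sign without a call. Groups that did not overlap numbered 10 of 28 genes, against 9.57% of all tested genes. They numbered 9 of 18 at 5 TPM (9.1% of all genes), 11 of 34 with no filter (7.74%) and 10 of 28 with median-of-ratios scaling (9.64%). Without haemoglobin and mitochondrial genes they numbered 9 of 29 (9.65%). With a sample left out they numbered 11 to 15 of 28, where fewer samples make separation more frequent among all genes too (14.2% to 32.8%, against 9.57%). Over all genes 17 passed, 0 with no filter, 0 with the hepatocyte covariate, and 0 to 27 with a sample left out. With the replicate block 25 passed and the members' median was -0.26. Deviations of same-numbered samples correlated at 0.016, -0.093 and 0.10, and 1 of 3 correlated best with its own number. With so few samples these values cannot show whether the numbers pair the samples. Read depth is unknown, and values under 1 TPM carry the least weight.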
